A study of Mus musculus with 6 samples.

Results

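The genes for the protein components of the cytosolic ribosome were examined in RNA-seq data of male mouse embryos at E9.5, about the middle of gestation. Members were the entries of the authors' expression table whose symbol is that of a large subunit protein (*Rpl* and a number, or *Rplp0* to *Rplp2* of the P stalk) or of a small subunit protein (*Rps* and a number, or *Rpsa*). This gave 83 genes of 24207 loci, 51 for the large and 32 for the small subunit, each listed once, on 19 chromosomes. Of these, 77 encode a regular subunit protein (46 large, 31 small) and 6 are paralogues of another member (*Rpl3l*, *Rpl7l1*, *Rpl10l*, *Rpl22l1*, *Rpl39l* and *Rps27l*).

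There were 6 embryos in 2 groups, 3 wildtype (*Smchd1*+/+) and 3 homozygous mutant (*Smchd1*MommeD1/MommeD1). Smchd1 is a chromatin protein needed for X chromosome inactivation, and MommeD1 is a nonsense allele induced with N-ethyl-N-nitrosourea and carried in the germ line, so that every cell of a mutant embryo lacks a normal copy. The sample labels give the strain background as C57Bl6/J x FVB/n, whereas the text of the study describes these embryos as backcrossed for several generations to 129 T2/SvEms. RNA came from frozen embryos genotyped from the yolk sac. The question asked by the study was which genes depend on Smchd1 in males, where X inactivation does not take place.

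The authors' table gives 1 pooled FPKM value for each genotype and locus. FPKM counts the fragments mapped to a gene relative to the length of its transcript and to all mapped fragments, so levels can be compared between genes. Single embryos were not analysed here, hence neither an SD between embryos nor a test accompanies any value below, and the depth of the libraries is unknown. The difference between genotypes is given as a log2 ratio of mutant over wildtype after adding 0.1 FPKM to both values, which understates ratios of low genes. It was computed for genes whose mean over the genotypes reached 1 FPKM. *Smchd1* itself (chr17:71344415-71475343, mm10) had a pooled value of 2.12 FPKM in the mutant and 34.0 FPKM in the wildtype, a log2 ratio of -3.94.

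A ribosome is built from ribosomal RNA and one copy of most of these proteins, with the P stalk proteins Rplp1 and Rplp2 as the known exception of several copies. The genes are dispersed over the genome, are active in every growing cell, and their mRNAs are among the most abundant of an embryo. Most of these mRNAs begin with a C followed by a run of pyrimidines, the terminal oligopyrimidine (TOP) sequence, through which growth signalling by mTOR controls how well they are translated. Many ribosomal protein genes also host small nucleolar RNAs (snoRNAs) in their introns and have processed pseudogenes elsewhere in the genome.

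The start of transcription is shown for 8 members, chosen because they mark the ends of the comparison below or are typical of the class. Each line gives the 15 bases before the RefSeq start and the 15 bases from the start on, on the strand of the gene, from build GRCm38.p6. Capitals mark a C followed by at least 5 pyrimidines (C or T).
Rpl38: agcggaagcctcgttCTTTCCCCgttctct
Rps6: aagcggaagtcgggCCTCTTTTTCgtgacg
Rpl7a: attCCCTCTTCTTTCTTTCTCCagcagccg
Rpl27a: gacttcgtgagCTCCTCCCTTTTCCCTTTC
Rps27: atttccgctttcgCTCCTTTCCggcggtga
Rpl22l1: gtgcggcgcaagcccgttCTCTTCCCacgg
Rpl41: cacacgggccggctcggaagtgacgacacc
Rpl37a: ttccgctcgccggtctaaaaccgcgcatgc

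The windows lie at chr11:114668565-114668594 on the plus strand for *Rpl38*, chr4:86857353-86857382 on the minus strand for *Rps6*, chr2:26910792-26910821 on the plus strand for *Rpl7a* and chr7:109519180-109519209 on the plus strand for *Rpl27a*. Those of *Rps27* (chr3:90213634-90213663, minus), *Rpl22l1* (chr3:28805493-28805522, plus), *Rpl41* (chr10:128549154-128549183, minus) and *Rpl37a* (chr1:72711245-72711274, plus) complete the set. In *Rpl38* the run of 8 bases began at the annotated start itself, in *Rpl7a* and *Rpl27a* a run of 19 bases lay across it, and in *Rpl41* and *Rpl37a* none lay in the window. RefSeq starts were matched for 63 of the 83 genes, with 75 starts in all. A run on the strand of the gene within 20 bases on either side of the start was present at 43 of 75 starts (57.3%), compared with 29.4% of 32851 mouse starts. Read on the opposite strand, such a run was present at 16% of the members' starts and at 32.3% of all starts.

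Other promoter words were searched on both strands in the 300 bases from 250 before the start to 50 after it. The word CCGGAA, which ETS factors recognise, was found at 48% of members' starts against 14.9% of all starts. GGGCGG, the core of an Sp1 site, was found at 60% against 35.7%, and AAGATGG, part of a YY1 site, at 16% against 6.34%. TATAAA was found at 9.33% against 13.6%. These are matches of letters only and show no binding.

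The ribosomal protein mRNAs were at the top of the embryo's transcriptome in both genotypes. Together they made up 15.4% (mutant) and 14.7% (wildtype) of the summed FPKM of all loci. Entries without a gene symbol held 36.8% and 39.3% of that sum, and over the 22855 named loci of at least 200 bp the members' shares were 24.4% and 24.3%. Of the 103 such named loci whose mean reached 1000 FPKM, 65 (63.1%) were members.

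Within the class, levels were spread over a wide range, with most genes in the middle of it. Of the 77 regular subunit genes, 60 had a mean between 1000 and 3000 FPKM, 5 were above and 12 below, and the highest was 34.6 times the lowest. The median pooled value was 1567 FPKM in the mutant and 1576 FPKM in the wildtype for the large subunit, and 2081 and 2020 FPKM for the small subunit. The large subunit genes, being more numerous, held 8.40% (mutant) and 8.01% (wildtype) of all summed FPKM, and the small subunit genes 7.03% and 6.72%. Over the named loci of at least 200 bp the genotypes were nearly level, at 13.3% and 13.2% for the large and 11.12% and 11.08% for the small subunit.

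The most abundant was *Rplp1*, for an acidic protein of the P stalk that recruits translation factors, at 4751 FPKM in the mutant and 4822 FPKM in the wildtype. *Rpl41*, for the smallest protein of the large subunit, followed at 4814 and 4354 FPKM. The small subunit genes *Rps12* (3700 and 3832 FPKM), *Rps2* (3586 and 3786 FPKM) and *Rps27* (2972 and 3036 FPKM) came next, so that 3 of the top 5 belonged to the smaller subunit. The lowest were *Rps15a* (134 FPKM in mutant, 143 FPKM in wildtype), *Rpl22* (236 and 248 FPKM), *Rpl21* (380 and 379 FPKM), *Rpl37* (537 and 531 FPKM) and *Rpl15* (600 and 605 FPKM).

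**Figure D1:**
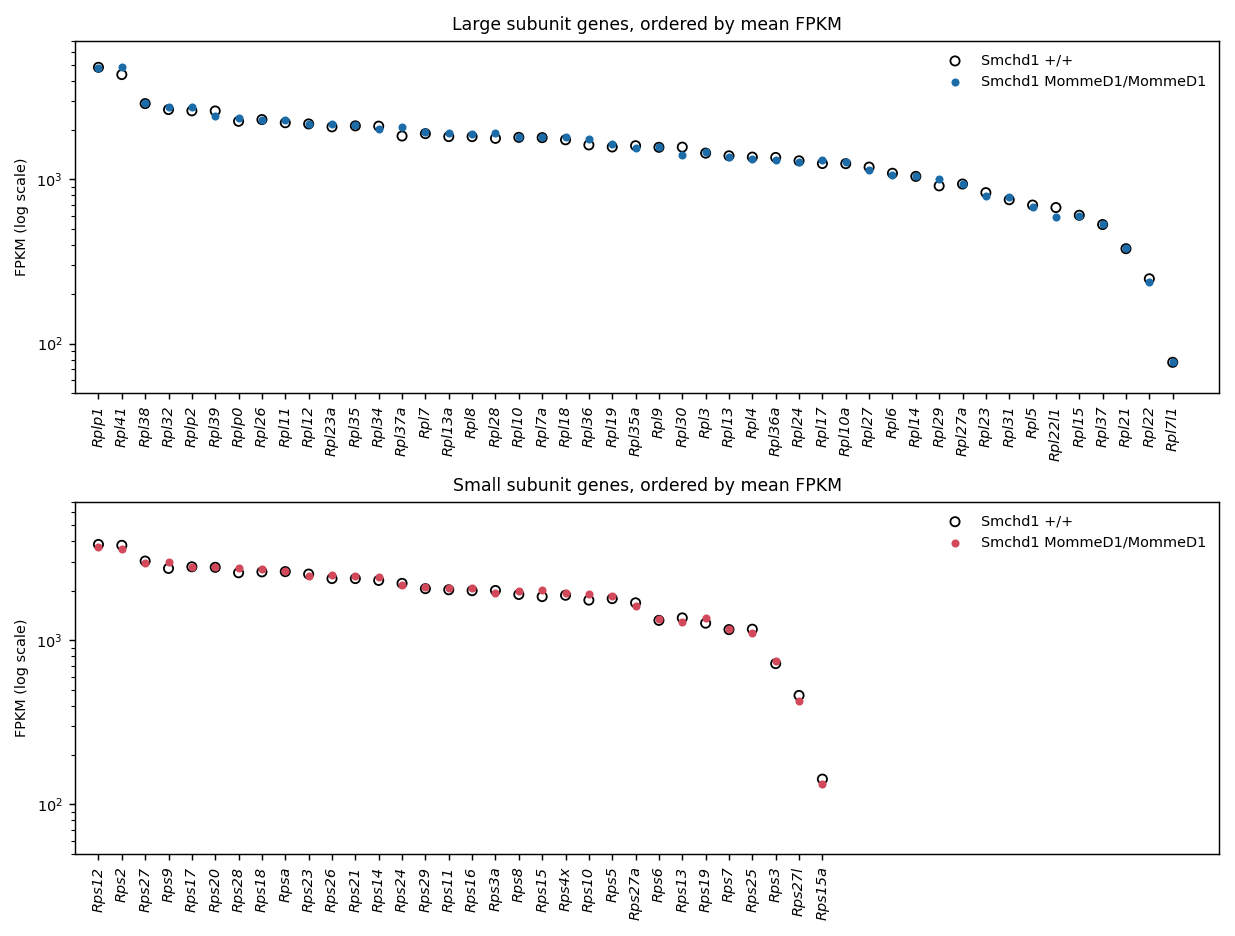
Pooled FPKM of 79 of the 80 ribosomal protein genes whose mean reached 1 FPKM (log axis), large subunit above and small subunit below, ordered by mean level along the horizontal axis. Open circles are wildtype and filled points mutant embryos, 1 value each without error. The 2 values of a gene nearly coincide from *Rplp1* at 4751 and 4822 FPKM down to *Rpl7l1* at 77.8 and 76.9 FPKM.

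Levels went with annotated transcript length, although FPKM is already scaled to length. Across the 77 regular genes, log2 mean FPKM and log2 length of the GENCODE M21 transcript had a Pearson's r of -0.57 and a Spearman's rho of -0.44, and r was -0.56 without the 2 transcripts over 3000 bp. *Rps15a*, the lowest, has a chosen transcript of 5179 bp. Lengths, and the GC values given below, are those of a single annotated transcript chosen per gene. Whether it is the form expressed in these embryos was not tested. Many members have near-identical processed copies, and how the authors' program divided reads between a gene and its copies was not tested. At 95% identity over at least 80% of the coding part, members had a median of 5 pseudogene copies, with 56 for *Rpl21* and 31 for *Rpl7a*, and only 7 members had none. The correlation of log2 mean FPKM with the number of copies was -0.16 (Pearson's r) over the 77 genes. These correlations are across genes, which are not independent replicates.

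Between genotypes the members differed little. Of the 80 genes past the level filter (48 large, 32 small), 0 were past 1.5-fold in either direction, where 3.51% of 12463 loci of at least 1 FPKM were 1.5-fold higher and 1.47% lower in the mutant. Among the 933 loci of at least 100 FPKM, a range that holds nearly all members, these shares were 2.47% and 2.25%. The 3 genes that did not pass were paralogues, described below.

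The members' log2 ratios had a median of 0.015, quartiles of -0.033 and 0.061, and an SD over genes of 0.072. The highest was 0.18 (*Rpl37a*) and the lowest -0.19 (*Rpl22l1*). In the deposited values 49 genes were higher and 31 lower in the mutant, but with the genotypes scaled to equal summed FPKM over named loci, a shift of -0.016, the split was 39 and 41 and the median -0.00045. The 10 members that crossed 0 were *Rpl3*, *Rpl7l1*, *Rpl9*, *Rpl10*, *Rpl14*, *Rpl21*, *Rpl35*, *Rpl37*, *Rpl38* and *Rps20*. Centred on the median locus instead, the split was 52 and 28 and the median 0.023. The direction of the class as a whole therefore depended on the scaling. The sum made equal includes the members themselves, at 24.4% of it in the mutant, and the erythroid genes described below. Those erythroid genes summed to 12688 FPKM in the mutant and 6006 FPKM in the wildtype. For comparison, all loci past the filter had a median of -0.0076, and the 750 other named loci of at least 200 bp and 100 FPKM had a median of -0.034 with quartiles of -0.11 and 0.051. The 38 of these that reached 1000 FPKM, the level of most members, had a median of 0.039, with 25 higher and 13 lower, which is above that of the members.

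The interquartile range of the log2 ratio was 0.093 for the members, 0.16 for those 750 loci and 0.13 for the 38 that reached 1000 FPKM. At a fold of 1.1, chosen after the values were seen, 3 members were higher in the mutant (*Rpl37a* and *Rpl41* among them) and 2 lower (*Rpl22l1* and *Rpl30*). The background at this fold was 9.05% higher and 15.1% lower among the 829 named loci of at least 200 bp and 100 FPKM, members included. Thus 75 of 80 members lay within 1.1-fold, and 6.25% lay beyond it, compared with 26% of the 750 other loci and 31.6% of the 38. Both genotypes ranked the members alike, with a Pearson's r of 0.998 between log2 values over the 80 genes.

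**Figure D2:**
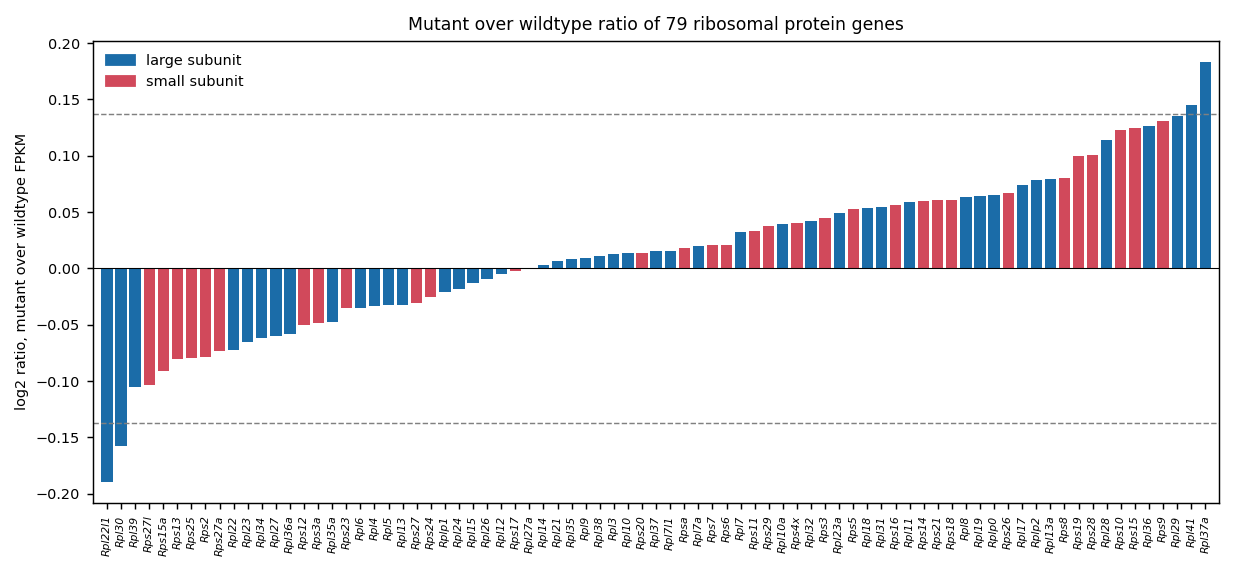
Log2 ratio of mutant over wildtype FPKM for 79 of the 80 genes, ordered from lowest to highest, in blue for the large and red for the small subunit. Dashed lines mark 1.1-fold in both directions; 4 bars reach past them, all of large subunit genes, and bars near 0 change sign with a scaling shift of -0.016.

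The ratios of both subunits overlapped. The large subunit genes had a median log2 ratio of 0.012, with 29 higher and 19 lower in the mutant, and the small subunit genes a median of 0.027, with 20 higher and 12 lower. With equal summed FPKM the medians were -0.0038 and 0.011, and the splits 20 to 28 and 19 to 13, so the direction of the large subunit was the one that turned. The difference of the medians, large minus small, was -0.015, against SDs over genes of 0.075 and 0.068. Scaling shifts all ratios alike and so cannot change this difference. The values ran from -0.19 to 0.18 for the large and from -0.10 to 0.13 for the small subunit.

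*Rpl37a*, for a zinc-binding protein of the large subunit, had the highest ratio, at 2088 FPKM in the mutant and 1839 FPKM in the wildtype. *Rpl41* was at 4814 and 4354 FPKM (log2 ratio 0.14). *Rpl29*, which encodes a protein also known as a heparin-binding protein, was at 1004 and 914 FPKM (0.14). *Rps9*, for a small subunit protein that binds early in assembly, had the highest ratio of its subunit at 2998 and 2738 FPKM (0.13).

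At the other end of the regular genes stood *Rpl30*, for a large subunit protein whose yeast counterpart binds its own transcript, at 1411 FPKM in the mutant and 1574 FPKM in the wildtype (-0.16). *Rpl39*, for a short protein at the wall of the exit tunnel, was at 2431 and 2614 FPKM (-0.11). *Rps15a* had a ratio of -0.091, *Rps13* of -0.081 (1294 and 1368 FPKM) and *Rps25* of -0.079 (1105 and 1167 FPKM). These are the lowest of 77 values whose SD over genes was 0.068.

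Some members have known mouse phenotypes when a copy is lost. *Rpl38*, whose loss in tail-short mice alters the axial skeleton and translation of Hox mRNAs, was at 2921 FPKM in the mutant and 2898 FPKM in the wildtype, a log2 ratio of 0.011. *Rpl24*, the gene of the belly spot and tail mutant, was at 1283 and 1299 FPKM (-0.018), and *Rpl27a*, mutated in sooty foot ataxia mice, at 938 FPKM in both (-0.00027). *Rps20* (2808 and 2781 FPKM) and *Rps7* (1178 and 1161 FPKM), which also have mutants with pigment or skeletal defects, had ratios of 0.014 and 0.021. *Rps19*, the gene most often mutated in Diamond-Blackfan anaemia, was at 1361 and 1270 FPKM (0.10), above the upper quartile of the members.

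The genes for 2 proteins that bind Mdm2 together with the smallest rRNA when ribosome assembly is disturbed differed little between genotypes. *Rpl5* was at 683 FPKM in the mutant and 699 FPKM in the wildtype (-0.033) and *Rpl11* at 2309 and 2216 FPKM (0.059). Among the 9 genes of a list of p53 targets that passed the filter, 4 were higher and 5 lower in the mutant, with a median of -0.0055 and 0 past 1.5-fold. The highest of these were *Cdkn1a*, an inhibitor of the cell cycle (6.62 and 5.13 FPKM, log2 ratio 0.36), and *Trp53inp1* (6.34 and 5.37 FPKM, 0.24). The lowest were *Pmaip1*, for a protein that promotes apoptosis (1.54 and 2.11 FPKM, -0.43), and *Sesn2* (5.30 and 5.81 FPKM, -0.13).

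Among members with defined places on the ribosome, the P stalk genes *Rplp0* (2366 and 2261 FPKM), *Rplp1* and *Rplp2* (2764 and 2618 FPKM) had ratios of 0.065, -0.021 and 0.078. *Rps6*, the substrate of S6 kinase, was at 1341 FPKM in the mutant and 1321 FPKM in the wildtype (0.021). *Rpsa*, also known as the laminin receptor, was at 2651 and 2618 FPKM (0.018). *Rpl7a*, for a large subunit protein that binds rRNA, was at 1823 and 1798 FPKM (0.020).

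Paralogues of ribosomal proteins were detected at very different levels relative to the gene they resemble. *Rpl22l1*, whose transcript is known to be repressed by the Rpl22 protein, exceeded its parent gene. It was at 591 FPKM in the mutant and 674 FPKM in the wildtype, whereas *Rpl22* was at 236 and 248 FPKM. *Rpl22l1* thus had 2.50 times the level of *Rpl22* in mutant and 2.72 times in wildtype embryos, or 71.5% and 73.1% of the pair. Its log2 ratio of -0.19 was the lowest of the 80 genes and that of *Rpl22* was -0.072. The coding sequences of the pair are 70.2% identical.

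*Rps27l*, a known p53 target, was at 429 FPKM in the mutant and 461 FPKM in the wildtype (-0.10), which was 12.6% and 13.2% of the pair with *Rps27*. The log2 ratio of *Rps27* was -0.031, and the coding sequences are 76.2% identical. *Rpl7l1*, whose product has been placed in ribosome assembly, was at 77.8 and 76.9 FPKM (0.016), only 3.84% and 3.89% of the pair with *Rpl7* (1945 and 1902 FPKM), with 62.6% identity. In each of these pairs the paralogue and the parent lay on the same side of 0 in the deposited values, and *Rpl7l1* crossed 0 when the summed FPKM was made equal.

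The other paralogues were near or at 0. *Rpl10l*, an autosomal copy used in male meiosis, was listed at 0 in both genotypes. *Rpl39l*, known from testis, was at 0.184 FPKM in the mutant and 0.147 FPKM in the wildtype. *Rpl3l*, known from heart and skeletal muscle, was at 0.0183 and 0.0455 FPKM. Their coding sequences are 84.7%, 85.0% and 74.4% identical to those of *Rpl10*, *Rpl39* and *Rpl3*, which were at 1823 and 1805, 2431 and 2614, and 1460 and 1447 FPKM.

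**Figure D3:**
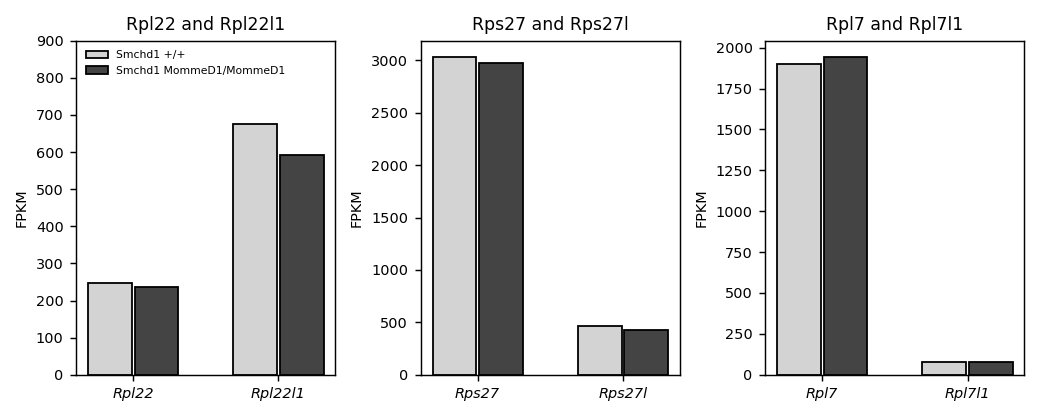
Pooled FPKM (axis from 0) of 3 genes and their expressed paralogues, light bars for wildtype and dark bars for mutant embryos, 1 value each without error. *Rpl22l1* stands above *Rpl22* in both genotypes, whereas *Rps27l* and *Rpl7l1* are below their parent genes.

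On the X chromosome 4 members were measured, none of which is subject to inactivation in male embryos. *Rps4x*, for a small subunit protein, was at 1932 FPKM in the mutant and 1879 FPKM in the wildtype (0.040), and *Rpl10*, for a protein added late in the assembly of the large subunit, at 1823 and 1805 FPKM (0.014). *Rpl36a* was at 1308 and 1362 FPKM (-0.058) and *Rpl39* had the ratio of -0.11 given above. Their median was -0.022 with 2 higher and 2 lower (1 and 3 with equal summed FPKM), and that of the 76 autosomal members 0.017. Chromosome 17, which carries *Smchd1* (from 71344415), held 7 members past the filter, starting between 24720063 (*Rps2*) and 56613395 (*Rpl36*). Their median was 0.061, and 6 (5 with equal summed FPKM) were higher in the mutant. *Rpl36* at 0.13, *Rps10* at 0.12 and *Rps28* at 0.10 were among the higher ones, and *Rps2* was lower (-0.079). All 4 members on chromosome 3 (*Rpl22l1*, *Rpl34*, *Rps3a* and *Rps27*) were lower, from -0.19 to -0.031. Chromosomes 17 and 3 were picked from 19 after the values were seen, and the split of all loci on them was not computed. Other chromosomes with few members also had all of them on 1 side, such as chromosome 1 (3 higher) and chromosome 14 (2 lower). Whether position on a chromosome had a part in the ratios was not tested.

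The log2 ratios moved with the base composition of the transcripts. Over the 80 members, Pearson's r between the log2 ratio and the GC content of the transcript was 0.51 and Spearman's rho was 0.50, with r of 0.49 in the large and 0.55 in the small subunit. With the members divided by GC into low, middle and high groups of 27, 26 and 27, the median ratio of the low group (40.6% to 49.2%) was -0.013 and 12 genes were higher and 15 lower. In the middle group it was 0.0083 (14 and 12), and in the high group (52.9% to 60.8%) 0.063 (23 and 4). *Rpl22l1* had the lowest GC of the members, and *Rps10* (60.3%) and *Rpl36* (60.8%) had ratios of 0.12 and 0.13.

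The relation was shared with other abundant genes. For the named loci of at least 100 FPKM that were not members and had a GC value (684 loci), r was 0.35 and rho 0.49. Within the members' ranges of GC their medians were -0.084 (257 loci), -0.0082 (167) and 0.026 (222), beside the members' -0.013, 0.0083 and 0.063. When the linear trend over 10479 loci was removed, a step added after the data were seen, the members' median was 0.015, their SD 0.062, and 48 were higher and 32 lower. The extremes were then *Rpl37a* at 0.22 and *Rps2* at -0.14, and *Rpl22l1* was at -0.087. The part of base composition in the difference between genotypes was not tested. These correlations are across genes of the same pooled libraries and are given as a description.

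**Figure D4:**
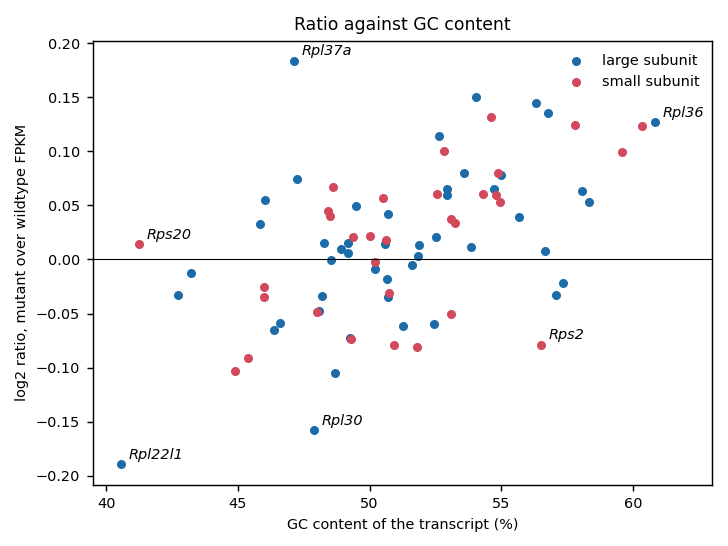
Log2 ratio of mutant over wildtype FPKM (vertical axis) against the GC content of the transcript in percent (horizontal axis) for the 80 genes, blue for the large and red for the small subunit, 6 genes named. Points lie mostly below 0 at the left and above 0 at the right, with *Rpl37a* and *Rps2* as the farthest from this trend.

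Members with and without a pyrimidine run near an annotated start had overlapping ratios. A run counted also where it lay wholly before the start, and how exact the annotated starts are was not tested. The groups are therefore not members with and without a TOP sequence. Of the 60 members past the filter with a RefSeq start, 35 had a run within the 30 bases around a start and a median log2 ratio of 0.0035, and 25 had none and a median of 0.015. The ranges were -0.19 to 0.13 and -0.081 to 0.18. Among mRNAs outside the class that are known to carry a TOP sequence, 6 of 16 were higher and 10 lower, with a median of -0.021. The highest of these were *Eef2* (0.11) and *Eif3f* (0.084), and the lowest *Npm1* (-0.32), which is also among the assembly factors below, and *Nap1l1* (-0.23).

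The genes of the wider translation pathway were grouped into lists. None of the genes in the translation lists was past 1.5-fold in either direction. Of 4 further genes for components of the cytosolic ribosome, 3 were higher and 1 lower in the mutant (median 0.047). *Fau*, which encodes a small subunit protein fused to a ubiquitin-like protein, was at 1724 FPKM in the mutant and 1665 FPKM in the wildtype (0.050). The scaffold protein gene *Gnb2l1* (Rack1) was at 1412 and 1369 FPKM (0.044), and *Rpl36al*, a close relative of *Rpl36a*, at 568 and 610 FPKM (-0.10).

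Among the elongation factors 2 of 7 were higher and 5 lower, with a median of -0.010. *Eef1a1*, which delivers tRNA, was at 7042 FPKM in the mutant and 6779 FPKM in the wildtype (0.055), above every ribosomal protein gene. *Eef2*, the translocase, was at 1162 and 1077 FPKM. The lowest ratios were those of *Eif5a2* (9.03 and 10.5 FPKM, -0.21) and *Eif5a* (1258 and 1328 FPKM, -0.078). Among the initiation factors 9 of 28 were higher and 19 lower, with a median of -0.10, from *Eif1a* (-0.32) and *Eif4a2* (-0.23) to *Eif3h* (0.074) and *Eif3f* (0.084). Of the 28, 8 were past 1.1-fold, all of these lower. Among the 829 named loci of at least 200 bp and 100 FPKM, 9.05% were 1.1-fold higher and 15.1% lower.

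The assembly factors of the ribosome were mostly lower in the mutant. Of 36, 35 were lower in the mutant and 1 higher, with a median of -0.14, and 18 were past 1.1-fold, all of these lower. Among the 5627 named loci of at least 200 bp between 10 and 100 FPKM, a range that holds the median level of this list (49.3 FPKM), 14.3% were 1.1-fold higher and 19.2% lower, and 2490 were higher and 3137 lower by any amount (median -0.021). *Gnl3* (nucleostemin) was at 47.7 FPKM in the mutant and 62.8 FPKM in the wildtype (-0.40) and *Npm1* (nucleophosmin) at 1956 and 2440 FPKM (-0.32). *Nob1*, an endonuclease that trims the rRNA of the small subunit, was at 38.5 and 37.2 FPKM (0.048), and *Bysl* at 31.9 FPKM in both (-0.0015). With the GC trend removed the median was -0.17, with 34 lower and 1 higher of the 35 with a GC value, and with equal summed FPKM it was -0.15, with 35 lower and 1 higher.

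RNA polymerase I and its factors, which make the large rRNA precursor, had 3 of 14 higher and 11 lower (median -0.081). Of the 14, 5 were past 1.1-fold, all of these lower, beside the 14.3% higher and 19.2% lower of the 5627 loci above. *Taf1c* (0.093) and *Polr1c* (0.049) were highest and *Taf1a* (-0.29) and *Taf1d* (-0.26) lowest. All 13 genes of growth signalling to the ribosome were lower in the mutant, with a median of -0.089, of which 2 were past 1.1-fold. Among the 5627 named loci between 10 and 100 FPKM, 19.2% were 1.1-fold lower, so this count is near the background. The 2 were *Mycn*, a transcription factor of embryonic growth (49.2 and 57.1 FPKM, -0.21), and *Eif4ebp1*, a repressor of cap-dependent translation (61.3 and 72.9 FPKM, -0.25). *Rps6kb2* (-0.015) and *Rptor* (-0.023) were nearest to 0. With the GC trend removed, 11 of the 13 were lower.

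The mitochondrial ribosome, whose proteins are encoded by a separate set of nuclear genes, had 37 of 73 genes higher and 36 lower with a median of 0.0029, or 28 and 45 with a median of -0.013 under equal summed FPKM. *Mrpl14* (67.5 and 56.1 FPKM, 0.27) and *Mrpl4* (43.7 and 37.8 FPKM, 0.21) were at one end and *Mrpl1* (10.1 and 11.8 FPKM, -0.23) and *Mrpl9* (28.8 and 33.7 FPKM, -0.22) at the other. A list of housekeeping genes had 6 of 15 higher and 9 lower (median -0.044), with *B2m* at 0.17, *Pgk1* at -0.27 and *Gusb* at -0.11.

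**Figure D5:**
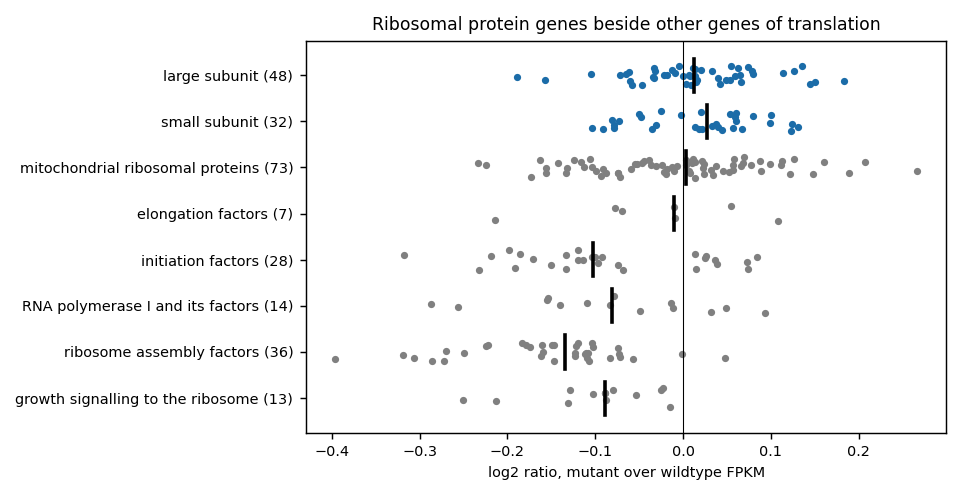
Log2 ratio of mutant over wildtype FPKM for each gene past the level filter in 8 gene lists, with the number of genes in brackets, the 2 subunits in blue and other lists in grey. Black bars are medians, at 0.012 and 0.027 for the subunits, which lie below 0 for the large subunit under equal summed FPKM, and at -0.14 for the assembly factors. The vertical scatter within a list has no meaning.

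Marker genes of the cells in an embryo were not level between the genotypes. All 6 erythroid genes were higher in the mutant, with a median log2 ratio of 1.01 and a summed level of 12688 FPKM in the mutant and 6006 FPKM in the wildtype. The embryonic globins *Hbb-y* (4191 and 1787 FPKM) and *Hba-x* (4602 and 2274 FPKM) were the most abundant, and 5 of the 6 were past 1.5-fold. Of 8 genes for tissues of the embryo proper, 2 were higher and 6 lower (median -0.17), with sums of 444 and 562 FPKM, from *Sox2* (0.11) and *Tbx5* (0.024) to *Myl7* (-0.42) and *T* (-1.24). In whole embryos, fewer cells of a type and less RNA per cell cannot be told apart.

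Markers of tissues around the embryo were low or at 0 for some genes and at several FPKM for others. Visceral endoderm markers summed to 19.6 FPKM in the mutant and 21.3 FPKM in the wildtype over 6 genes, of which *Afp* (0.85), *Rhox5* (-0.32) and *Ttr* (-1.56) passed the filter. Of 6 trophoblast markers 4 were listed at 0, and only *Plac1* passed (-0.23). Of 4 genes listed as decidua markers 2 passed, *Dcn* (0.57) and *Hand2* (12.2 FPKM in the mutant and 11.4 FPKM in the wildtype, 0.10). Whether the reads of these markers came from tissue around the embryo or from the embryo itself was not tested. The part of the cell types in the members' ratios was not tested.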

How the data were processed

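RNA of 3 wildtype and 3 mutant male embryos was extracted with a Qiagen kit and sequenced by the authors in single-end reads of 100 bp from libraries that were not directional. Per the submitters' processing notes, TopHat2 2.0.6 with Bowtie2 2.0.2 aligned the reads to mm10, and Cufflinks and Cuffdiff 2.0.2 compared the genotypes. The annotation release is not given in the sources used here. The authors' table holds FPKM pooled over the embryos of a genotype. Its fold changes, test statistics, p-values and q-values are the authors' own comparison and were not used. The table's columns were assigned to genotypes from the study's own copy, which names them. Locus starts, counted from 0 in the table, were moved to count from 1. Since the libraries do not mark strand, reads of overlapping genes cannot be told apart. Of the 80 members past the filter, 33 shared their locus with another entry, and the locus of *Rps15* held 47 entries.

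The members and gene lists were chosen with earlier results of these data known. The lists cover other ribosome components, elongation and initiation factors, other TOP mRNAs, assembly factors, RNA polymerase I, growth signalling, p53 targets, housekeeping genes, mitochondrial ribosomal proteins and markers of erythroid cells, visceral endoderm, trophoblast, decidua and the embryo proper. Log2 ratios used a pseudocount of 0.1 FPKM and a minimum mean of 1 FPKM. With 1 value per genotype no test was possible, and a gene past 1.5-fold was counted without a p-value. The 83 members were matched to GENCODE M21 transcripts for length, GC content and pseudogenes (BLAST 2.17.0), and start sequences came from RefSeq on GRCm38.p6. Genes were named by a rule: paralogues, X-linked members, the 5 highest and lowest regular members by level and by ratio, members with a known phenotype or place on the ribosome, and the 2 highest and lowest of each list. Those named by chromosome, GC content or a fold of 1.1, and a few further list members, were chosen after their values were seen. A few genes that the rule would name are not reported here. The log2 ratio, the fold cut and the members' median were checked on noise-free values made from the wildtype column, without a pseudocount. There the shifts put in come back by construction, and the other steps were not checked in this way. Software was Biopython 1.88, pandas 2.3.3, matplotlib 3.10.9, numpy 2.4.6 and scipy 1.17.1 in Python 3.11.15.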

Additional observations from a re-analysis of the deposited data

How the results depend on the processing

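Of 88 alternatives, 69 kept the direction and moved a median by less than 0.02 on the log2 scale, a share by less than 1 percentage point or a count by less than 1.5 times. Some of these could hardly move a result, so the tally does not measure stability. The lowest mean of the members past the filter was 77.4 FPKM, so a minimum of 10 FPKM removed none and the pseudocount changed little. Scaling cannot change the large minus small difference, and 0 members past 1.5-fold leaves 0 at 2-fold. With equal summed FPKM over named loci the median log2 ratio was -0.00045 for all members and -0.0038 for the large subunit, both turned from positive. The small subunit's median stayed between 0.011 and 0.037 and the large minus small difference between -0.029 and -0.0098 under all alternatives run. No member was past 1.5-fold under any pseudocount or filter on level tried, while at 1.1-fold 3 were higher and 2 lower. The pseudocount and the filter were changed singly, so the paralogues below 1 FPKM were never counted without a pseudocount. Over all loci, where 438 were 1.5-fold higher and 183 lower, the counts were 253 and 112 with a pseudocount of 1 FPKM, 70 and 50 with a minimum mean of 10 FPKM, and 1242 and 589 with no filter. They were 1102 and 621 at a fold midway between 1 and 1.5, 122 and 64 at 2-fold, and 2704 and 2606 at 1.1-fold. With the GC trend removed, over the 10479 loci with a GC value, 300 were higher and 101 lower, and the cause was not tested. The members' share was 24.4% in mutant and 24.3% in wildtype embryos over named loci of at least 200 bp, a smaller denominator. The 1.1-fold and GC alternatives, and that of members alone at their locus, were chosen after seeing the data. No paired analysis was possible because 1 pooled value per genotype was used, and for the same reason no embryo could be left out. The depth of the libraries is unknown.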

Other observations

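Ribosomal protein genes host snoRNAs, which guide the modification of rRNA and are released from the introns of their hosts. In the GENCODE annotation, 58 snoRNA genes lay inside 30 of the members, and 31 snoRNA entries of the authors' table lay at the loci of 22 members. Of these entries, 22 were listed at 0 in both genotypes and 9 reached a mean of 1 FPKM. *Snora65* in *Rpl12* was the highest, at 509 FPKM in the mutant and 532 FPKM in the wildtype, and *Snora64* in *Rps2* was at 356 and 304 FPKM. *Snora70* in *Rpl10* was at 218 and 146 FPKM and *Snora3* in *Rpl27a* at 67.3 and 135 FPKM, and the log2 ratios of these hosts were 0.014 and -0.00027. As with other overlapping genes, reads of a snoRNA and of its host cannot be told apart here. Whether the snoRNAs differed from their hosts was not tested. *Snora33* in *Rps12* (182 FPKM in wildtype) and *Snora69* in *Rpl39* (33.9 FPKM in wildtype) were listed at 0 in mutant embryos. In FPKM tables without counts an exact 0 can be a failed estimate, and single embryos were not analysed for these entries.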
